A study of Mus musculus with 6 samples.

Results

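The genes described here are 10 chemokines that attract lymphocytes and dendritic cells: Cxcl9, Cxcl10, Ccl5, Cxcl16, Cx3cl1, Ccl17, Ccl22, Ccl20, Cxcl12 and Cxcl14. They were taken by symbol from the deposited count table, through its Entrez numbers. All 10 were among the 15295 genes of that table, and all 10 were among the 14498 that passed the filter on low counts. RNA was sequenced from 6 tumours of the NA13 line, mouse bladder cancer cells that the series describes as having high Ddr2 expression. In 3 tumours the cells are labelled as carrying an shRNA against Ddr2, which encodes a collagen-binding receptor tyrosine kinase, and in 3 a scrambled shRNA (control). Every tumour received IgG, and the strain is given as C57BL/6. The labels call the tumours xenografts and give neither age nor clone, nor whether tumours of a group came from separate animals. The p-values hence rest on sample-to-sample spread, part of which could be technical.

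Chemokines are small secreted proteins that bind receptors on leukocytes and direct their movement. Cxcl9 and Cxcl10 are made under interferon gamma and draw activated T cells and NK cells through Cxcr3. Ccl17 and Ccl22, products of dendritic cells and macrophages, act through Ccr4 on helper and regulatory T cells. Cxcl12 comes mainly from fibroblasts and endothelium, Cxcl14 from epithelia, and Cxcl16 and Cx3cl1 are made as membrane-anchored proteins that proteases release.

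No chemokine of the set differed between the groups beyond the spread among tumours. With edgeR's quasi-likelihood test, 0 of 10 passed an adjusted p of 0.05 and 0 had an unadjusted p under 0.05, where 1.44% of all genes did (0.993% higher and 0.448% lower). DESeq2 also called 0 of 10. What stood out was the distance between tumours of the same group. Cxcl9 spanned 89.0-fold, Cxcl10 18.2-fold and Cxcl12 10.6-fold over the 6 libraries, while Cxcl16 spanned 1.45-fold. Values are given as CPM, read counts scaled to a common library size with TMM factors.

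Library totals lay between 15560571 and 19522985 counts. The library labelled shDdr2 1 stood apart on the first principal component (50.1% of the variance), and control 1 on the second (22.2%). Ddr2 itself had 4.84, 19.0 and 28.6 CPM in the tumours labelled shDdr2 1 to 3, against 6.42, 16.7 and 20.5 CPM in control 1 to 3, a log2 fold change of 0.27 (SE 0.66). With shDdr2 3 left out it was -0.28, and with control 1 left out -0.082. The target gene was thus not measurably lower in RNA of whole tumours, and groups are named as labelled throughout. Whether Ddr2 was lower in the tumour cells alone cannot be read from these libraries. Its lowest and highest libraries, shDdr2 1 and shDdr2 3, were also those of the summed fibroblast markers given below. The part of such cells in the level of Ddr2 was not tested. Over all genes 0% were called higher and 0% lower by edgeR (lowest adjusted p 1.00), and DESeq2 called 0.235% higher and 0.0414% lower. Of the markers of the labelled tissue, Krt5, a basal keratin, stood at 5085 to 5798 CPM in the tumours labelled shDdr2 and 4939 to 5954 CPM in control tumours. Of 13 bladder epithelial markers 11 were tested and 0 passed the edgeR test. Among them 9 were below a log2 fold change of 0, with a median of -0.22. Of the 11, 3 (Epcam, Krt8 and Krt18) were lower without overlap, where 2.11% of all genes were. Krt8, a keratin of simple epithelia, had 0.289, 11.8 and 10.1 CPM in the tumours labelled shDdr2 1 to 3, against 14.6, 30.4 and 14.1 CPM in control 1 to 3. Upk1a and Upk3a were not analysed here.

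**Figure D1:**
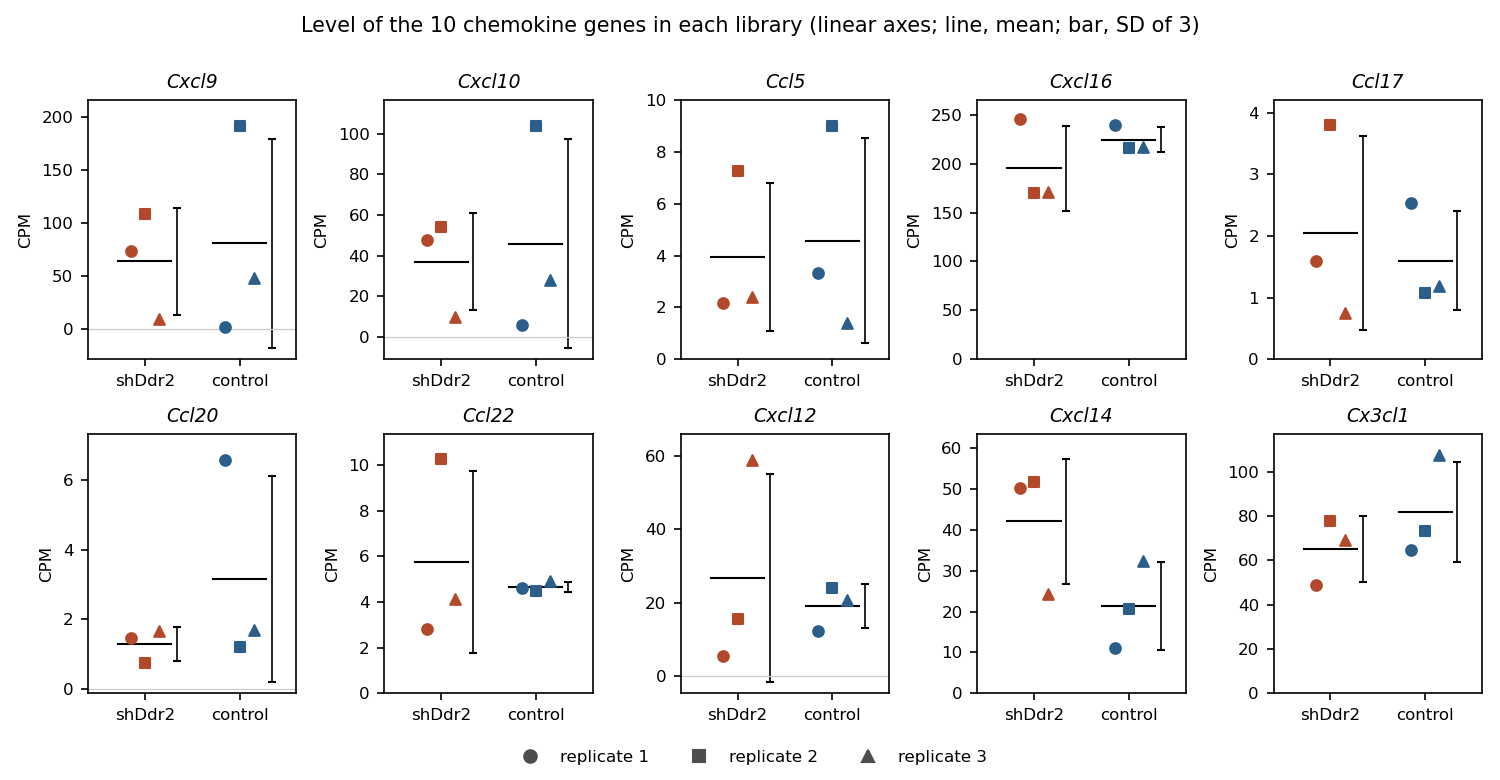
CPM of each of the 10 chemokine genes (linear axes), with tumours labelled shDdr2 left and control tumours right, replicate number by symbol, the mean as a line and the SD of 3 as a bar. The groups overlap in every panel, and Cxcl9 runs to 109 CPM in the tumours labelled shDdr2 and 192 CPM in control tumours.

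Cxcl9 and Cxcl10, the Cxcr3 ligands, were each high in some tumours of both groups and low in others. Cxcl9 (Entrez 17329, chromosome 5, 92321347 to 92328079, minus strand, GRCm38) had 73.9, 109 and 9.41 CPM in the tumours labelled shDdr2 1 to 3, against 2.16, 192 and 48.7 CPM in control 1 to 3. Both the highest and the lowest library were control tumours. Its neighbour Cxcl10 (Entrez 15945, chromosome 5, 92346638 to 92348889, minus strand) had 47.5, 53.8 and 9.59 CPM in the tumours labelled shDdr2 1 to 3, against 5.72, 104 and 28.2 CPM in control 1 to 3. The 6 libraries fell in the same order for both genes, from control 2 at the top through shDdr2 2, shDdr2 1, control 3 and shDdr2 3 to control 1. Their ratio, Cxcl9 over Cxcl10, was 1.56, 2.02 and 0.982 in the tumours labelled shDdr2 1 to 3, against 0.377, 1.85 and 1.73 in control 1 to 3. Control 1 thus held less Cxcl9 for its Cxcl10 than any other tumour.

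On the log2 scale Cxcl9 differed by -0.34 (SE 1.30, with a 95% interval from -3.39 to 2.72) and Cxcl10 by -0.31 (SE 0.98, from -2.61 to 1.99), within error in both cases. With control 2 left out these became 1.33 and 1.13, and with shDdr2 3 left out 0.18 and 0.14, so the direction rests on single tumours. Each was higher in the tumour labelled shDdr2 in 1 of 3 same-numbered pairs. An exon of Art3 on the opposite strand shares 133 bases with Cxcl10, and the strand setting of the counting is not given in the sources used here. In whole tumours, fewer producing cells and less RNA per cell cannot be told apart, for these and all genes below.

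The promoters of this adjacent pair are shown because the genes moved together over the libraries. Each is the 250 bases before the RefSeq start on GRCm38.p6, written 5′ to 3′ on the strand of the gene, at chr5:92328080-92328329 (minus) and chr5:92348890-92349139 (minus). Capitals mark matches on either strand to 5 motifs. These are the core of the interferon-stimulated response element (GAAA, any 2 bases, GAAA), the gamma-activated site (TTC, any 3 bases, GAA), the STAT6-type site (TTC, any 4 bases, GAA), the kappa B site (GGGA, any 3 bases, TCC) and the TATA box (TATAAA).
Cxcl9: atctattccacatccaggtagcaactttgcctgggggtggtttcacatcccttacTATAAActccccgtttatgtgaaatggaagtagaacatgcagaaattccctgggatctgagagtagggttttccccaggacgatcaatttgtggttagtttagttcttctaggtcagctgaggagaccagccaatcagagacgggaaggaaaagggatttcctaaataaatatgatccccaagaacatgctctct
Cxcl10: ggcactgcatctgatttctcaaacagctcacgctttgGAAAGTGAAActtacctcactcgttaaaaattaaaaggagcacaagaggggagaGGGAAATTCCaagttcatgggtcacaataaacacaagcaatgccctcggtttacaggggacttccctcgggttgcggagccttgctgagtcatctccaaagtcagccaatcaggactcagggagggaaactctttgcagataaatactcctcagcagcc
In Cxcl10 the interferon element core lay 213 to 204 bases before the start and a kappa B match 159 to 150 bases before it, and the 2 did not overlap. Of 32851 mouse promoters of the same length, 2.98% held the interferon element core and 3.86% the kappa B letters. The Cxcl9 window held only a TATAAA, 195 to 190 bases before the start, a motif found in 12.4% of promoters. These are letter matches in a fixed window and do not say which factor binds.

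Most genes of the interferon gamma axis had their highest and lowest levels in the same tumours. Control 2 was highest and control 1 lowest for 7 of the 12 tested, including Irf1, Irf8, Socs1, Gbp2 and Gbp3, while the receptor genes Ifngr1 and Ifngr2 and the class II activator Ciita had other orders. Of 13 genes listed 12 were tested. Among them 0 passed the edgeR test in either direction, and the median log2 fold change was -0.13, against 0.04 over all genes. Ifng, the inducing cytokine, was not analysed here. The whole order of the libraries was that of Cxcl9 and Cxcl10 for 3 of the 12. Gbp2, an interferon-induced GTPase, had 121, 300 and 37.4 CPM in the tumours labelled shDdr2 1 to 3, against 20.7, 414 and 134 CPM in control 1 to 3. Its span was 20.1-fold, close to that of Cxcl10. The receptor gene Ifngr2, which had the smallest p of the list, was steadier, with 94.0, 98.1 and 85.3 CPM in the tumours labelled shDdr2 1 to 3, against 112, 118 and 92.1 CPM in control 1 to 3.

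Among 12818 genes with a mean log2 CPM of at least 1, likeness was measured as the mean absolute difference of log2 CPM after each gene was centred over the 6 libraries. The closest to Cxcl9 were Tgtp1 (0.35) and Iigp1 (0.41), both interferon-inducible GTPases, where the median gene lay at 1.93. Tgtp1 has a near-identical copy, so its counts are uncertain. The closest to Cxcl10 were Psmb9, a subunit of the immunoproteasome (0.20), and Gbp2 (0.26), where the median gene lay at 1.27. Cxcl9 and Cxcl10 lay 0.68 apart.

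Marker sums of the cells that Cxcr3 ligands attract also had their extremes in the same tumours. Summed over 10 of 11 T cell markers, levels ran from 42.0 to 70.8 CPM in the tumours labelled shDdr2 and from 30.2 to 98.5 CPM in control tumours. Il2rg, which many leukocytes carry, gave 21.6 CPM of the 42.0 in shDdr2 1 and 46.8 CPM of the 98.5 in control 2. In shDdr2 1 the T cell sum was lower than in every tumour but control 1. The 7 tested of 10 NK and cytotoxic markers summed to 13.1, 32.2 and 10.7 CPM in the tumours labelled shDdr2 1 to 3, against 7.28, 45.1 and 21.6 CPM in control 1 to 3. Control 2 was highest and control 1 lowest for both sums, as for Cxcl9 and Cxcl10. The sum of 8 monocyte chemokines had the same extremes (461 and 175 CPM), so they were not particular to T cell, NK and cytotoxic markers. Gzma, a granzyme of cytotoxic cells, had 1.80, 10.4 and 0.230 CPM in the tumours labelled shDdr2 1 to 3, against 0.431, 14.7 and 3.71 CPM in control 1 to 3. Gzma was thus lowest in shDdr2 3, and the markers Cd4 and Klrk1 were highest in shDdr2 2. Cd3e, Ncr1, Tbx21 and Prf1 were not analysed here, and the part of these cells in the chemokine levels was not tested.

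**Figure D2:**
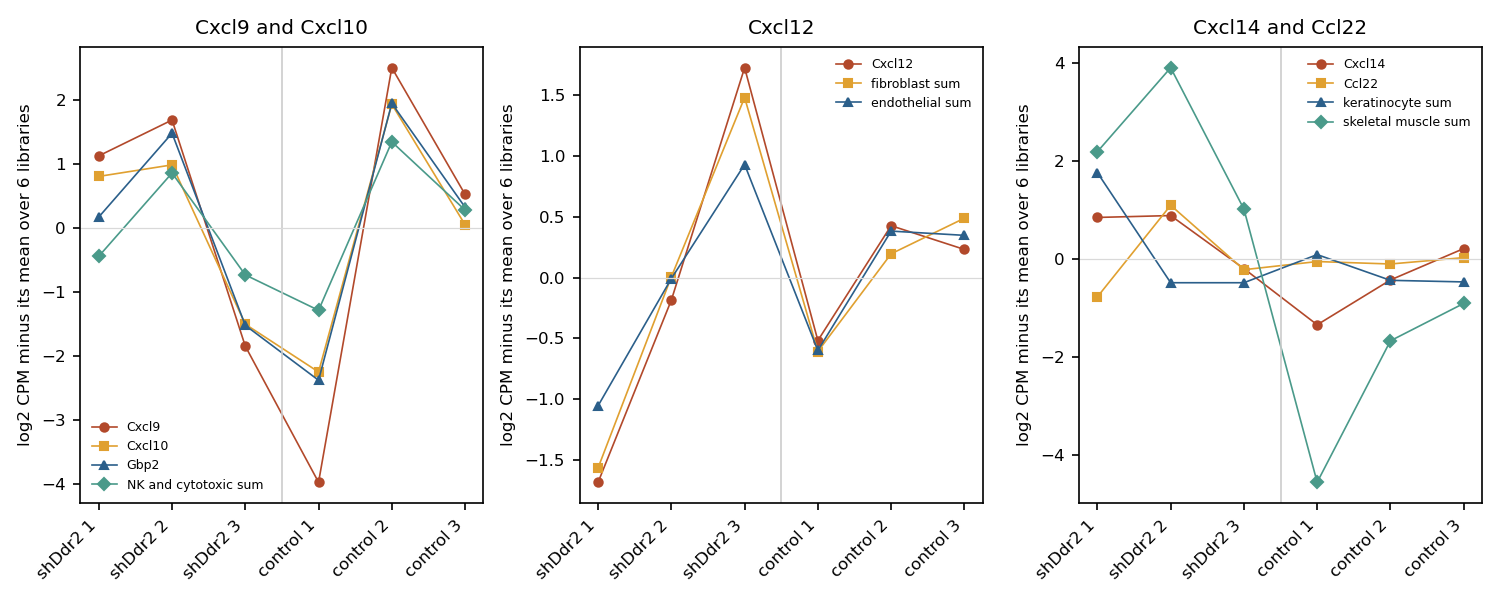
Log2 CPM minus its mean over 6 libraries (vertical axis) for each library (horizontal axis, tumours labelled shDdr2 left of control tumours), with lines only joining the points of 1 gene or 1 marker sum. Cxcl9 and Cxcl10 are highest in control 2 and lowest in control 1, while Cxcl12 is highest in the library labelled shDdr2 3 and lowest in that labelled shDdr2 1.

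Ccl5, a ligand of Ccr1 and Ccr3 among other receptors, made by T cells and NK cells among others, was low in all tumours. Ccl5 (Entrez 20304, chromosome 11, 83525778 to 83530518, minus strand) had 2.17, 7.26 and 2.41 CPM in the tumours labelled shDdr2 1 to 3, against 3.34, 9.02 and 1.38 CPM in control 1 to 3. Replicate 2 was the high tumour in each group, and the groups overlapped. The fold change was -0.21 (SE 0.76) on the log2 scale. With control 2 left out it was 0.74, and with shDdr2 2 left out it was -0.999. The genes nearest in pattern were Kcnh2, a potassium channel gene (mean absolute difference 0.30), and H2-Aa, an MHC class II chain of antigen-presenting cells (0.37). For Ccl5 the median gene lay at 0.86.

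Cxcl16 and Cx3cl1, the membrane-anchored chemokines, varied least of the 10. Cxcl16, the ligand of Cxcr6 (Entrez 66102, chromosome 11, 70453983 to 70459984, minus strand), had 245, 170 and 171 CPM in the tumours labelled shDdr2 1 to 3, against 239, 216 and 218 CPM in control 1 to 3. The library labelled shDdr2 1 was the highest of all and the other 2 of its group the lowest. It differed by -0.20 on the log2 scale (SE 0.22, with a 95% interval from -0.71 to 0.31), and by -0.40 when shDdr2 1 was left out. Exons of Zmynd15 on the opposite strand share 552 bases with Cxcl16. Cx3cl1, or fractalkine, which draws Cx3cr1-bearing monocytes and lymphocytes (Entrez 20312, chromosome 8, 94772009 to 94782427, plus strand), had 48.8, 77.6 and 69.3 CPM in the tumours labelled shDdr2 1 to 3, against 64.9, 73.4 and 107 CPM in control 1 to 3. Control 3 was high and the library labelled shDdr2 1 low, a 2.20-fold span. Its log2 fold change was -0.33 (SE 0.27). Leaving out control 3 gave -0.084, and leaving out shDdr2 1 gave -0.16.

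The spread of Cxcl16 and Cx3cl1 was ordinary for their level. The SD of log2 CPM over the 6 libraries was 0.23 for Cxcl16, and 64.1% of the 1937 genes within 1 log2 unit of its mean level had a larger one. For Cx3cl1 it was 0.37, and 36.7% of 4803 such genes had a larger one. Cxcl9 had an SD of 2.42, exceeded by 0.166% of 4813 genes, and Cxcl10 of 1.58, exceeded by 0.701% of 5277. Genes closest in pattern to Cxcl16 were Slc30a9, a zinc transporter (0.024), and Trmo (0.037), where the median gene lay at 0.30. Those closest to Cx3cl1 were Tead4, a transcription factor of the Hippo pathway (0.072), and the phosphatase gene Ptpn13 (0.074). For Cx3cl1 the median gene lay at 0.37.

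The list of shedding and trimming genes gave 0 calls among 8 tested, with 4 above and 4 below a log2 fold change of 0. It held the proteases Adam10, Adam17, Dpp4, Mmp2 and Mmp9, the metalloproteinase inhibitor Timp3, and Rhbdf1 and Rhbdf2, inactive rhomboid proteins that assist Adam17. Adam10, which sheds Cxcl16 and Cx3cl1, was the most abundant, with 135, 198 and 205 CPM in the tumours labelled shDdr2 1 to 3, against 229, 179 and 214 CPM in control 1 to 3. Dpp4, a dipeptidase that trims the ends of Cxcl10, Cxcl12 and others, had the smallest p of the list, with a log2 fold change of 1.60 (SE 0.71). It had 0.794, 3.56 and 6.08 CPM in the tumours labelled shDdr2 1 to 3, against 0.755, 1.07 and 1.63 CPM in control 1 to 3. The groups overlapped through the library labelled shDdr2 1.

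Ccl22 and Ccl17, the Ccr4 ligands, flank Cx3cl1 on chromosome 8 and were both highest in the library labelled shDdr2 2. Ccl22 (Entrez 20299, chromosome 8, 94745590 to 94751699, plus strand) had 2.82, 10.3 and 4.13 CPM in the tumours labelled shDdr2 1 to 3, against 4.64, 4.48 and 4.90 CPM in control 1 to 3. The control tumours sat close together, inside the range of the other group. Ccl17 (Entrez 20295, chromosome 8, 94810453 to 94812036, plus strand) had 1.59, 3.80 and 0.746 CPM in the tumours labelled shDdr2 1 to 3, against 2.54, 1.07 and 1.19 CPM in control 1 to 3. These came from 22, 78 and 13 counts in the tumours labelled shDdr2, against 47, 18 and 19 counts in control tumours. The 95% Poisson intervals of the high library labelled shDdr2 2 (3.00 to 4.74 CPM) and of that labelled shDdr2 3 (0.397 to 1.27 CPM) did not meet, which covers counting error only.

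The log2 fold change was 0.30 (SE 0.50) for Ccl22 and 0.36 (SE 0.66) for Ccl17. Without the library labelled shDdr2 2 these were -0.42 and -0.47. The ratio of Ccl22 to Ccl17 was 1.77, 2.71 and 5.54 in the tumours labelled shDdr2 1 to 3, against 1.83, 4.17 and 4.11 in control 1 to 3, so the pair did not keep a fixed proportion. The closest in pattern to Ccl22 were Smtnl2 (0.14) and AI467606 (0.15), where the median gene lay at 0.46. Ccl17 lay below the level set for that comparison.

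Their promoters are shown for the shared peak in 1 tumour, on the same build and in the same form, at chr8:94745434-94745683 (plus) and chr8:94810203-94810452 (plus), with the 5 motifs above in capitals.
Ccl22: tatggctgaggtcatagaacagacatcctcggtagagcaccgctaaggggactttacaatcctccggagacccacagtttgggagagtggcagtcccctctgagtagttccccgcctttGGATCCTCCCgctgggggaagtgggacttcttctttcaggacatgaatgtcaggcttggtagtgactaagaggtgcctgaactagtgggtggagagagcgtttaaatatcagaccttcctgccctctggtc
Ccl17: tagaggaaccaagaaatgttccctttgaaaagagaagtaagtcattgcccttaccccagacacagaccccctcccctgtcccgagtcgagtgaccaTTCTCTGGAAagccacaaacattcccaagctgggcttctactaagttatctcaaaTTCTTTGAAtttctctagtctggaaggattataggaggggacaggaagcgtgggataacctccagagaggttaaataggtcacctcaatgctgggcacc
Ccl17 held a STAT6-type match 154 to 145 bases before the start, a class of site that 5.85% of promoters held, and a gamma-activated match 99 to 91 bases before it (7.02%). STAT6 carries the signal of type 2 cytokines, which are known inducers of Ccl17. The RefSeq start of Ccl22 lies inside the GENCODE gene, and its window held a kappa B match on the opposite strand, 131 to 122 bases before the start. Over the 8 members with a promoter entry, the interferon element core was also present in Cxcl14, and Ccl20 and Cxcl12 held none of the 5 motifs.

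Genes of the type 2 axis gave 0 calls among 8 tested of 10, with 7 below a log2 fold change of 0 and a median of -0.52. The list held cytokines, receptors and Stat6, and also Arg1 and Retnla, which type 2 signals induce, and the feedback inhibitor Socs3. Il4 and Il13 were not analysed here. Il13ra1, a chain of the type 2 cytokine receptors, was the most abundant, with 346, 179 and 137 CPM in the tumours labelled shDdr2 1 to 3, against 239, 193 and 185 CPM in control 1 to 3. Arg1, an arginase of type 2 macrophages, had the smallest p of the list, with 236, 81.6 and 155 CPM in the tumours labelled shDdr2 1 to 3, against 315, 232 and 229 CPM in control 1 to 3. Its log2 fold change was -0.71 (SE 0.38). Dendritic cell markers (9 tested of 11) summed to 224 to 295 CPM in the tumours labelled shDdr2 and to 225 to 368 CPM in control tumours. Most of that sum was Fscn1, an actin-bundling gene, at 199 to 253 CPM in the tumours labelled shDdr2 and 200 to 331 CPM in control tumours. Flt3, the growth factor receptor of dendritic cells, had 0.794, 2.39 and 0.976 CPM in the tumours labelled shDdr2 1 to 3, against 0.593, 2.03 and 1.13 CPM in control 1 to 3, and Siglech was not analysed here. The 10 macrophage markers summed to 263, 572 and 619 CPM in the tumours labelled shDdr2 1 to 3, against 267, 683 and 532 CPM in control 1 to 3. In shDdr2 2, the tumour with the most Ccl22 and Ccl17, 6 of the 9 dendritic cell markers were also at their highest. These were Flt3, Clec9a, Batf3, Itgae, Itgax and Ccr7, while Zbtb46, Cd209a and Fscn1 were highest in other tumours. Control 2 was second highest for the same 6 markers, but had Ccl22 at 4.48 CPM and Ccl17 at 1.07 CPM, both below control 1. Without Fscn1, left out after values were seen, the other 8 summed to 24.5, 61.6 and 42.4 CPM in the tumours labelled shDdr2 1 to 3, against 24.97, 51.4 and 37.1 CPM in control 1 to 3. The tumour labelled shDdr2 2 also had the highest sums of 9 skeletal muscle markers (2937 CPM) and of 4 B cell markers (30.6 CPM). The part of any of these cells in the levels of Ccl22 and Ccl17 was not tested.

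Ccl20, the ligand of Ccr6 on Th17 cells and dendritic cells, had the most negative fold change of the set, and it rested on 1 tumour. Ccl20 (Entrez 20297, chromosome 1, 83116766 to 83119167, plus strand) had 1.44, 0.731 and 1.67 CPM in the tumours labelled shDdr2 1 to 3, against 6.58, 1.19 and 1.70 CPM in control 1 to 3. Control 1 stood well above the other 5, which lay within 0.731 to 1.70 CPM. It differed by -1.31 on the log2 scale (SE 0.72, with a 95% interval from -3.00 to 0.37), but by -0.17 with control 1 left out. Control 1 held 122 counts and the other libraries 15 to 29. Control 1 also had the highest sum of 6 neutrophil chemokines, at 623 CPM, where the tumours labelled shDdr2 had 88.1 to 164 CPM and the other control tumours at most 268 CPM. Its 4 erythrocyte markers summed to 596 CPM, where the tumours labelled shDdr2 had 25.1 to 62.6 CPM and the other control tumours 46.1 and 56.0 CPM. Their part in the level of Ccl20 was not tested. The genes nearest in pattern were Dynap (0.23) and Gcnt3, a mucin-type glycosyltransferase (0.27), where the median gene lay at 0.74.

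Genes of the NF-kB axis, which induces Ccl20 among others, had log2 fold changes below 0 in 11 of 11 tested, with a median of -0.32. Over all genes 42.9% were below 0. None of the 11 passed the edgeR test. Those with an unadjusted p under 0.05 were Nfkbia, Il1b and Nfkbiz, all lower in the tumours labelled shDdr2, as 0.448% of all genes were. Nfkbia, the feedback inhibitor of NF-kB, had 185, 159 and 209 CPM in the tumours labelled shDdr2 1 to 3, against 290, 257 and 260 CPM in control 1 to 3. Its groups did not overlap, nor did those of Tnf, Il1b and Nfkbiz. Of the 11, 4 were thus lower without overlap, where 2.11% of all genes were. Nfkb1, the most abundant, had 200, 275 and 257 CPM in the tumours labelled shDdr2 1 to 3, against 216, 268 and 307 CPM in control 1 to 3.

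Cxcl12, the stromal ligand of Cxcr4 and Ackr3, had its extremes in the same libraries as the fibroblast markers. Cxcl12 (Entrez 20315, chromosome 6, 117168535 to 117181367, plus strand) had 5.56, 15.7 and 58.9 CPM in the tumours labelled shDdr2 1 to 3, against 12.5, 24.0 and 20.9 CPM in control 1 to 3. The extremes were both in the group labelled shDdr2, and the control tumours lay between them. Summed over all 10 fibroblast markers, levels were 1214, 3601 and 9997 CPM in the tumours labelled shDdr2 1 to 3, against 2354, 4106 and 5028 CPM in control 1 to 3. The 9 endothelial markers summed to 115, 237 and 453 CPM in the tumours labelled shDdr2 1 to 3, against 157, 310 and 303 CPM in control 1 to 3. The library labelled shDdr2 1 was lowest and that labelled shDdr2 3 highest in both sums, as in Cxcl12, and the part of these cells in the level of Cxcl12 was not tested.

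Cxcl12 differed by 0.48 on the log2 scale (SE 0.76, with a 95% interval from -1.29 to 2.25). With shDdr2 3 left out the value was -0.84, with shDdr2 1 left out 0.96, and with the replicate number as a block it was -0.096. The nearest in pattern were Dnm3os, a long noncoding RNA (0.12), and Aoc3, an amine oxidase of vessels and fat (0.15), where the median gene lay at 0.81.

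Cxcl14, an epithelial chemokine that attracts monocytes and immature dendritic cells, had the most positive fold change of the set. Cxcl14 (Entrez 57266, chromosome 13, 56288643 to 56296551, minus strand) had 50.2, 51.5 and 24.3 CPM in the tumours labelled shDdr2 1 to 3, against 11.0, 20.7 and 32.3 CPM in control 1 to 3. Replicates 1 and 2 labelled shDdr2 lay above every control tumour, while replicate 3 lay below control 3. The means were 42.0 ± 15.3 CPM in the tumours labelled shDdr2 and 21.4 ± 10.7 CPM in control tumours (SD, n = 3 each). On the log2 scale Cxcl14 differed by 0.98 (SE 0.45, from -0.072 to 2.03 at 95%). With edgeR the unadjusted p was 0.0637 and the adjusted p 1.00. Its sign was positive in all 16 alternatives tried, between 0.51 and 1.40, with the lowest when replicate 1 of both groups was left out.

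The sum of keratinocyte markers was high in shDdr2 1, and that of skeletal muscle markers in all 3 tumours labelled shDdr2. No marker of either list passed the edgeR test. DESeq2 called the muscle genes Tnni2, Mylpf and Ckm higher, where it called 0.235% of all genes higher. Of the 9 muscle markers, 8 were higher without overlap, where 2.21% of all genes were. The 9 keratinocyte markers summed to 4949, 1044 and 1044 CPM in the tumours labelled shDdr2 1 to 3, against 1554, 1080 and 1056 CPM in control 1 to 3. Not all of them were high in shDdr2 1. Flg was at its lowest there (45.3 CPM), and Ivl (58.8 CPM) was below control 1 (104 CPM). The 9 skeletal muscle markers summed to 896, 2937 and 398 CPM in the tumours labelled shDdr2 1 to 3, against 8.36, 61.8 and 105 CPM in control 1 to 3. Their part in the level of Cxcl14 was not tested. The genes nearest to Cxcl14 in pattern were Rrad, a small GTPase (0.16), and the phosphodiesterase gene Pde10a (0.17). For Cxcl14 the median gene lay at 0.68.

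**Figure D3:**
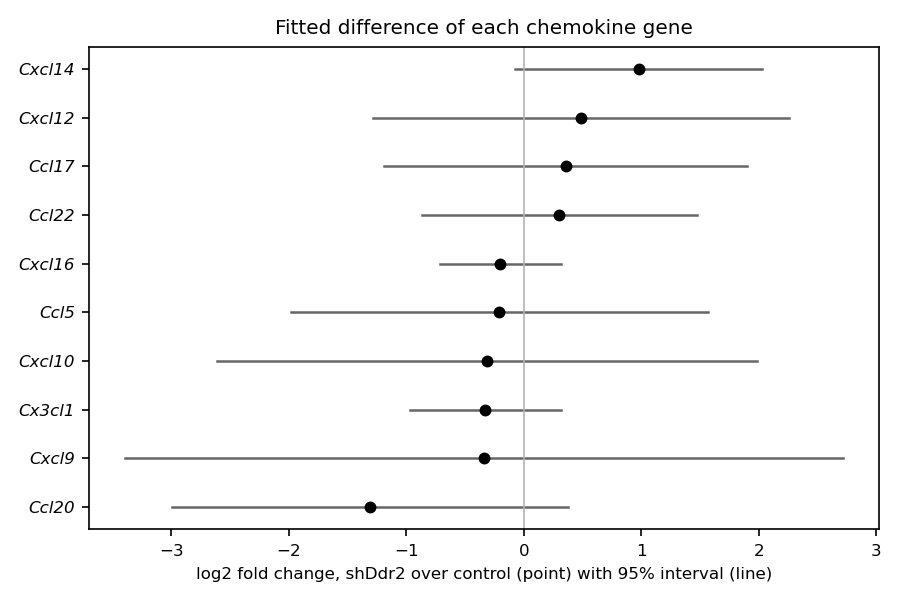
Log2 fold change of each chemokine gene, tumours labelled shDdr2 over control tumours (horizontal axis), from edgeR with its 95% interval. All 10 intervals include 0, and their reach to either side runs from 0.51 for Cxcl16 to 3.06 for Cxcl9.

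Over the set, 6 chemokines had a log2 fold change below 0 and 4 above, with a median of -0.20. Over all genes 42.9% were below 0 and the median was 0.04. Without control 2, 3 of 10 were below 0 and the median was 0.47. Groups did not overlap in 0 of 10, where 2.21% of all genes were higher and 2.11% lower without overlap. Of 3 same-numbered pairs, 1 was higher in the tumour labelled shDdr2 for 8 of the 10 chemokines, 2 for Cxcl14 and 0 for Ccl20. Most pairs were thus lower in the tumour labelled shDdr2 for all but Cxcl14, and the same count over all genes was not made.

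Per length of exon, Cxcl16 was the most abundant chemokine of the set in every library. It averaged 69.5 ± 10.8 CPM per kb (SD, n = 6), against 24.0 ± 23.5 for Cxcl9, the next in order. Cx3cl1, Cxcl10 and Cxcl14 followed at 18.7 ± 4.91, 18.4 ± 16.1 and 17.3 ± 8.96 CPM per kb. A lower set held Ccl5 at 4.44, Ccl17 at 3.55, Cxcl12 at 2.80, Ccl22 at 2.24 and Ccl20 at 1.56 CPM per kb. All 9 pairs of neighbours in this order had overlapping ranges over the libraries, although Cxcl16 lay above Cxcl9 within each of the 6. Cxcl9 moved most in rank, from 2 in the library labelled shDdr2 2 and in control 2 to 10, the last, in control 1. With the longest transcript in place of all exons, Ccl17 and Cxcl12 exchanged places and no other rank changed.

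**Figure D4:**
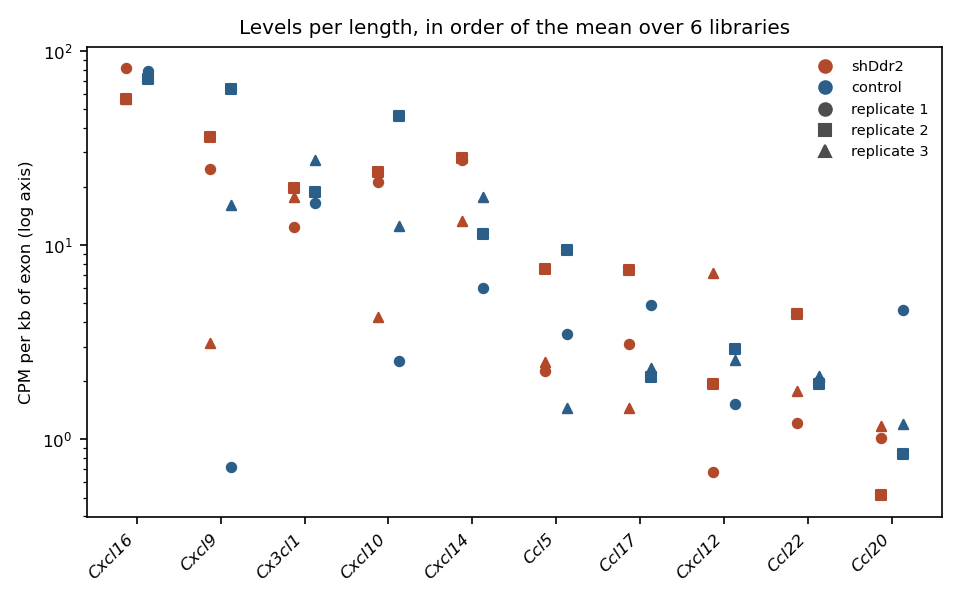
CPM per kb of exon (log axis) for the 10 chemokine genes in order of their mean over 6 libraries, with tumours labelled shDdr2 left and control tumours right at each gene and replicate number by symbol. Cxcl16 stays between 56.2 and 81.2 CPM per kb, while Cxcl9 runs from 0.715 to 63.7 CPM per kb.

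Of 10 receptor genes for these ligands, 8 were tested, and Cxcr3 and Ccr6 were not analysed here. None passed the edgeR test, 4 were above and 4 below a log2 fold change of 0, and the median was 0.04. Ccr4, the receptor of Ccl17 and Ccl22 (chromosome 9, 114490316 to 114504916, minus strand), had the smallest p. It had 61.8, 33.0 and 25.9 CPM in the tumours labelled shDdr2 1 to 3, against 24.8, 11.4 and 14.6 CPM in control 1 to 3. Every tumour labelled shDdr2 lay above every control tumour, which held for 2.21% of all genes. Ccr4 differed by 1.25 on the log2 scale (SE 0.42). The unadjusted p of edgeR was 0.0200, a level that 0.993% of all genes reached with a higher value in the tumours labelled shDdr2. The adjusted p of edgeR was 1.00, and that of DESeq2 was 0.822. Over 16 alternatives it lay between 0.80, without the library labelled shDdr2 1, and 1.65, without control 1, and the lowest adjusted p was 0.588.

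Per length, Ccr4 averaged 9.24 CPM per kb over the 6 libraries and was at 3.67 CPM per kb or more in each. Il2rg, a cytokine receptor chain of many leukocytes, averaged 13.2 CPM per kb. The other 9 T cell markers tested averaged 0.138 to 1.94 CPM per kb and reached at most 2.84 CPM per kb in any library. Cd3d and Cd3g, chains of the T cell receptor complex, averaged 0.930 and 0.659 CPM per kb. Foxp3, the factor of regulatory T cells, had 0.289, 1.66 and 0.976 CPM in the tumours labelled shDdr2 1 to 3, against 0.216, 0.657 and 0.440 CPM in control 1 to 3. Ccr4 was highest in shDdr2 1, where Foxp3 was lower than in every tumour but control 1. Of the other regulatory T cell markers tested, Tnfrsf18 was also highest in shDdr2 1, at 39.6 CPM. Il2ra, Ctla4 and Ikzf2 were highest in other tumours. The library labelled shDdr2 1 was also the one with the highest sum of keratinocyte markers, and their part in the level of Ccr4 was not tested.

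The other 6 receptors described overlapped between the groups. Of the Cxcl12 receptors, Cxcr4 differed by -0.34 (SE 0.39) and Ackr3 by 0.10 (SE 0.25) on the log2 scale. Ackr3, the most abundant, had 87.4, 65.1 and 54.4 CPM in the tumours labelled shDdr2 1 to 3, against 57.8, 77.5 and 57.1 CPM in control 1 to 3. Cxcr6, the receptor of Cxcl16 on T cells and NKT cells, had 2.46, 4.68 and 1.72 CPM in the tumours labelled shDdr2 1 to 3, against 1.62, 6.03 and 3.39 CPM in control 1 to 3. It was highest in control 2 and lowest in control 1, as were Cxcl9 and Cxcl10, while its ligand Cxcl16 stayed level. Cx3cr1, the receptor of Cx3cl1 on monocytes and macrophages, had 8.74, 18.5 and 27.7 CPM in the tumours labelled shDdr2 1 to 3, against 14.8, 10.8 and 11.1 CPM in control 1 to 3 (log2 fold change 0.58, SE 0.42). Ccr1 and Ccr3 had log2 fold changes of -0.031 and -0.37.

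**Figure D5:**
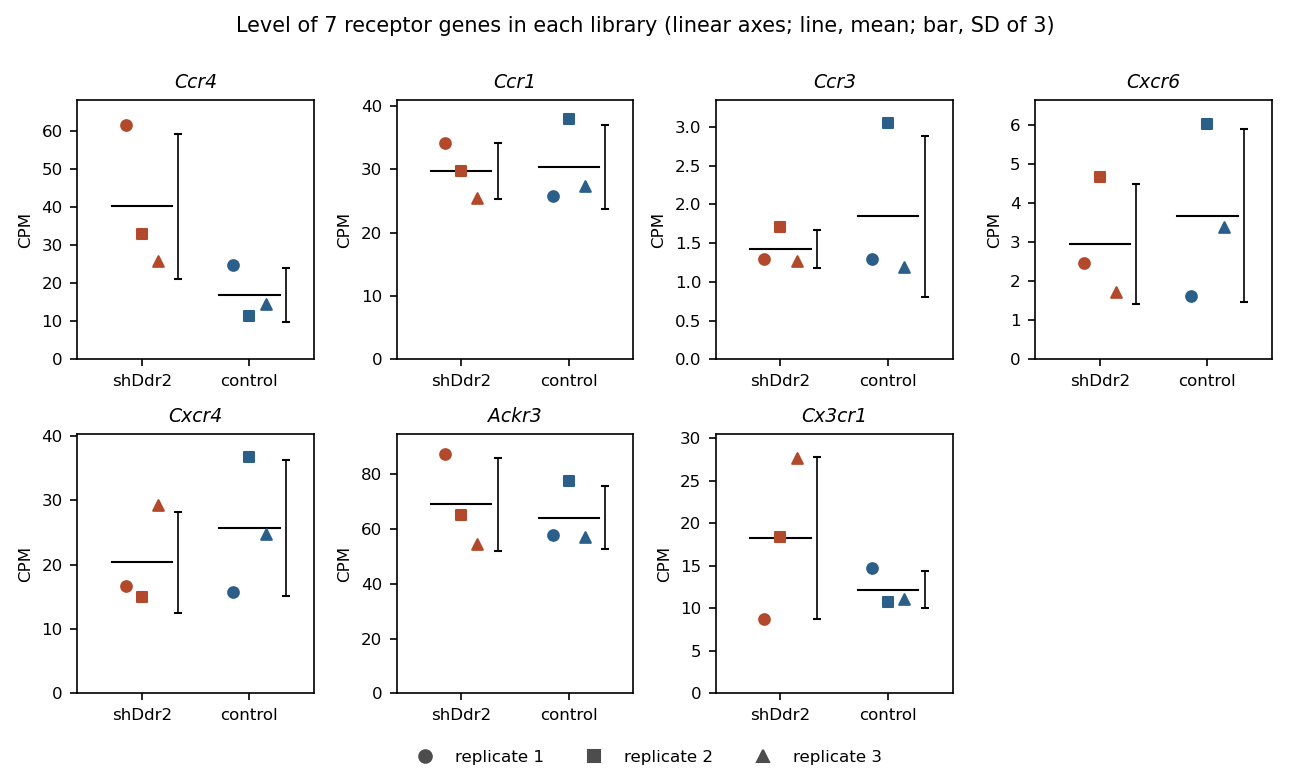
CPM of 7 receptor genes (linear axes), tumours labelled shDdr2 left and control tumours right, replicate number by symbol, the mean as a line and the SD of 3 as a bar. Of the genes shown, Ccr4 alone has groups without overlap, at 25.9 CPM and above in the tumours labelled shDdr2 and 24.8 CPM and below in control tumours.

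Other chemokine classes are given for scale. All 6 neutrophil chemokines had log2 fold changes below 0, with a median of -1.35, and the groups did not overlap in 3, where 2.11% of all genes were lower without overlap. The 8 monocyte chemokines had a median of -0.27 with 6 below 0, and the 4 tested of 9 other lymphoid chemokines a median of 0.06. None of these passed the edgeR test. DESeq2 called Cxcl2, a neutrophil chemokine, lower (log2 fold change -1.94 in edgeR, adjusted p 0.0140 in DESeq2). Whether the lymphocyte chemokines differ from the other classes was not tested. Cxcl11, a further Cxcr3 ligand, had 2.02, 1.41 and 0.0574 CPM in the tumours labelled shDdr2 1 to 3, against 0.485, 5.74 and 1.32 CPM in control 1 to 3. Control 2 was again the highest library. Ccl19, Ccl21a, Xcl1, Ccl1 and Ccl28 were not analysed here.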

How the data were processed

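Polyadenylated RNA of 6 tumours was read in pairs, 150 bp from each end, per the labels. Per the submitters' processing notes, Bowtie2 2.1.0, RSEM 1.2.31, the build GRCm38.p5 and limma (no version) were involved, in unspecified roles. The deposited counts are whole numbers by Entrez gene, possibly rounded from estimates, and the lowest is 1. The authors also deposited log2 values, which equal the log2 of the count times 1 factor per library, plus 1 (100% of 91770 values gave whole counts within 0.05). The sources used here do not give the strand setting, the annotation or how shared reads were handled.

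Counts were filtered with filterByExpr, scaled by TMM and tested with the robust quasi-likelihood F test of edgeR 4.0.16 (R 4.3.3), two-sided, with Benjamini-Hochberg adjustment over 14498 genes. DESeq2 1.42.0 and limma 3.58.1 served as alternatives. The median half-width of the 95% intervals on log2 fold changes was 0.755. Symbols came from RefSeq by Entrez number (14876 matched, 419 did not), coordinates and exon lengths from GENCODE M21 on GRCm38, and promoters from RefSeq on GRCm38.p6, where 8 of the 10 chemokines had an entry and Ccl5 and Cxcl16 did not.

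Genes named are the 10 chemokines, Ddr2, the receptors, list members with the smallest p or highest level, and the 2 genes most like each chemokine. Several genes were chosen after values were seen. These were Gzma, Gbp2, Foxp3 and the other regulatory T cell markers, Epcam, Krt8, Flg, Ivl, Flt3, Cd3d, Cd3g, Cxcl11, Il1b, Nfkbiz, Mylpf and Ckm. So were Cd4, Klrk1, Tnf and the dendritic cell markers named for 1 tumour. The interferon axis genes named by library order and the T cell markers set beside Ccr4 were also chosen then. The chemokines and lists were chosen with earlier results of these data known. Same-numbered libraries deviated together over genes (r of 0.299, 0.267 and 0.253 for numbers 1, 2 and 3, all above the 0.1 set for pairing). A different-numbered pair, shDdr2 2 with control 3, reached 0.254, and the remaining pairs had negative values. The labels do not say what a number stands for. Some genes that this rule names are not reported here.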

Additional observations from a re-analysis of the deposited data

How the results depend on the processing

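With the replicate number as a block, 0 genes were called, the chemokine median was -0.05 and no call changed. The sign of Cxcl12 turned there, at -0.096. Of 160 chemokine values over the alternatives, 17 changed sign and 0 passed an adjusted p of 0.05. DESeq2 called 40 genes in all. With limma's voom and with limma trend on the authors' log2 table, Cxcl9 stood at 0.68 and 0.62, Cxcl10 at 0.21 and 0.18, and Cxcl12 at -0.026 and -0.096. Scaling left 6 of 10 chemokines below 0 each time.

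Leaving out single tumours moved most values. The lowest and highest log2 fold changes were -0.96 and 1.33 for Cxcl9, -0.82 and 1.13 for Cxcl10, -0.999 and 0.74 for Ccl5, -0.47 and 0.86 for Ccl17, -0.42 and 0.63 for Ccl22, -0.84 and 0.96 for Cxcl12, and -0.28 and 0.71 for Ddr2. The median of the 10 ran between -0.47 and 0.47, and 3 to 8 were below 0. Genes at an unadjusted p under 0.05 numbered 170 to 1022, against 209 with all libraries. Leaving out shDdr2 1 gave the 1022, and leaving out shDdr2 3 gave 395. Genes without overlap numbered 1191 to 3682, against 626, as fewer libraries overlap less. Leaving out replicate 1 of both groups, chosen after seeing the data, gave 1033 and 5658 genes. The cause of the other moves was not tested. Ccl17 and Ccl20 rest on 13 to 122 counts per library, which limits what could be seen.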
